A study of Mus musculus with 4 samples.

Results

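A set of 10 genes of the actin cytoskeleton were followed in T cells from kidney tumors, chosen by symbol: Actb, Actg1, Pfn1, Cfl1, Tmsb4x, Tmsb10, Coro1a, Arpc1b, Arpc2 and Arpc3. They are 10 of the 32285 genes counted, and all 10 were found in every library and passed the filter on low counts in every comparison. The cells were CD3+ T cells sorted from subcutaneous tumors of 105K cells, a Tsc2-deficient mouse kidney tumor line, grown in wild-type male C57BL/6J mice. In the control group (sh-NC) the tumor cells carried a non-targeting short hairpin RNA, and in the other group (sh-B7-H3 (1)) they carried a hairpin against Cd276, which encodes the immune checkpoint protein B7-H3. The tumor cells were pools selected with puromycin, not single clones, and the T cells themselves carried no hairpin. The labels state that 80 tumors per group were combined and run on 2 lanes, so each group had 2 libraries. On that reading the spread between libraries is that of lanes and may be technical. The paper's legend instead describes 2 independent samples per group, and its methods name a single lane. No batch is labelled, and handling that went with a group cannot be told apart from its hairpin.

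Cells were called from their RNA, counted as unique molecular identifiers (UMIs). Cd4 cells had at least 1 Cd4 UMI and no Cd8a, Cd8b1 or Foxp3 UMI. Cd8 cells had at least 1 UMI of Cd8a or Cd8b1 and none of Cd4 or Foxp3. Foxp3 cells, which carry RNA of the defining factor of regulatory T cells, had at least 1 Foxp3 UMI and no Cd8 UMI. Each was split at 20 UMIs of Ccl5, a chemokine made by effector and memory T cells, which gave 6 classes. The 4 libraries held 7030 to 12112 called cells with 79224898 to 132820909 RNA UMIs, and 2013 to 4533 kept cells per library fell in a class. Cd4 cells with Ccl5 under 20 had medians of 7579 and 8131 UMIs in sh-NC against 6706 and 6980.5 in sh-B7-H3 (1). Cd8 cells had 8709 and 9144 against 7801 and 7982, and 5890 to 6004 with Ccl5 at least 20. The cuts were on raw UMIs, and the part of depth in the lineage calls was not tested. Results with Ccl5 split relative to depth, and with cells thinned, are in the closing section. Cells with Ccl5 at least 20 made up 6.99 and 9.20% of Cd4 cells in the sh-NC libraries and 48.0 and 45.7% in the sh-B7-H3 (1) libraries. They made up 13.8 and 18.1% of Cd8 cells against 54.1 and 52.3%. Foxp3 cells with Ccl5 at least 20 numbered only 12 to 16 per library. T cell markers summed to 52.1 to 114 per 10000 UMIs in every class and library, and B and NK cell markers stayed at or under 0.381 and 0.458. The libraries shared 17 to 35 cell barcodes per pair.

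Actin is stored as monomers and polymerizes into filaments. Actb and Actg1 encode the cytoplasmic actins beta and gamma. The thymosins Tmsb4x and Tmsb10 encode small peptides that bind and sequester monomers, and profilin (Pfn1) binds monomers and feeds them to growing filament ends. Cofilin (Cfl1) severs and disassembles filaments, and coronin 1A (Coro1a) binds filaments and the Arp2/3 complex in white blood cells. Arpc1b, Arpc2 and Arpc3 are subunits of Arp2/3, which starts filament branches. In T cells this system shapes migration and the immune synapse.

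Positions are in build GRCm38. Actb (ENSMUSG00000029580) is at chr5:142903115-142906754 on the minus strand, Actg1 (ENSMUSG00000062825) at chr11:120345690-120348542 (minus) and Pfn1 at chr11:70651850-70654644 (minus). Cfl1 is at chr19:5490455-5495201 (plus), Tmsb4x (ENSMUSG00000049775) at chrX:167207093-167209315 (minus) and Tmsb10 (ENSMUSG00000079523) at chr6:72957347-72958748 (minus). Coro1a is at chr7:126699773-126707787 (minus), Arpc1b at chr5:145114215-145130705 (plus), Arpc2 at chr1:74236084-74268209 (plus) and Arpc3 at chr5:122391878-122414184 (plus).

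RefSeq promoters (GRCm38.p6) were at hand for 9 of the 10 genes, all but Actb. The 250 bases before each start were searched on both strands for the CArG box, the site bound by serum response factor, which controls many actin genes, and for the GC box, GGGCGG. A CArG box was found in 1 of the 9 genes, Actg1, and in 1.47% of all 32851 promoters. A GC box was found in 7 of the 9 genes. Counted per promoter, since some genes have several, 9 of their 12 promoters held a GC box and 1 a CArG box, against 32.7% of all promoters for the GC box. These 9 include every promoter of Tmsb10, and promoters of genes as abundant as the 10 were not set apart. The windows below are shown for Actg1, which holds the CArG box, and for both thymosins and profilin, the monomer binders, with the CArG box of Actg1 and the GC boxes of the others in capitals. The Tmsb10 window is from 1 of several promoters of the gene and lies inside the gene interval given above. A match describes letters only and is no shown site.
Actg1, chr11:120348551-120348610, minus strand: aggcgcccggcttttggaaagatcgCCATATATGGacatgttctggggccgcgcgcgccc
Tmsb10, chr6:72958527-72958582, minus strand: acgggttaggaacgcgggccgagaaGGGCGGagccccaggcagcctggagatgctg
Tmsb4x, chrX:167209399-167209454, minus strand: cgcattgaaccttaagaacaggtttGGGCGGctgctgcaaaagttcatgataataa
Pfn1, chr11:70654651-70654702, minus strand: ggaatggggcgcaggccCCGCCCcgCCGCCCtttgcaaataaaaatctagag

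Levels are given per 10000 UMIs of the class, in the order sh-NC library 1 and 2, then sh-B7-H3 (1) library 1 and 2. Fold changes are log2 values from edgeR's quasi-likelihood test with TMM scaling, a gene is called where p, adjusted over all genes tested (Benjamini-Hochberg), is under 0.05, and errors of fold changes are standard errors. The levels divide by all UMIs while the fold changes use TMM, so the 2 scales can differ in size and sign where a class differs in its abundant genes.

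**Figure D1:**
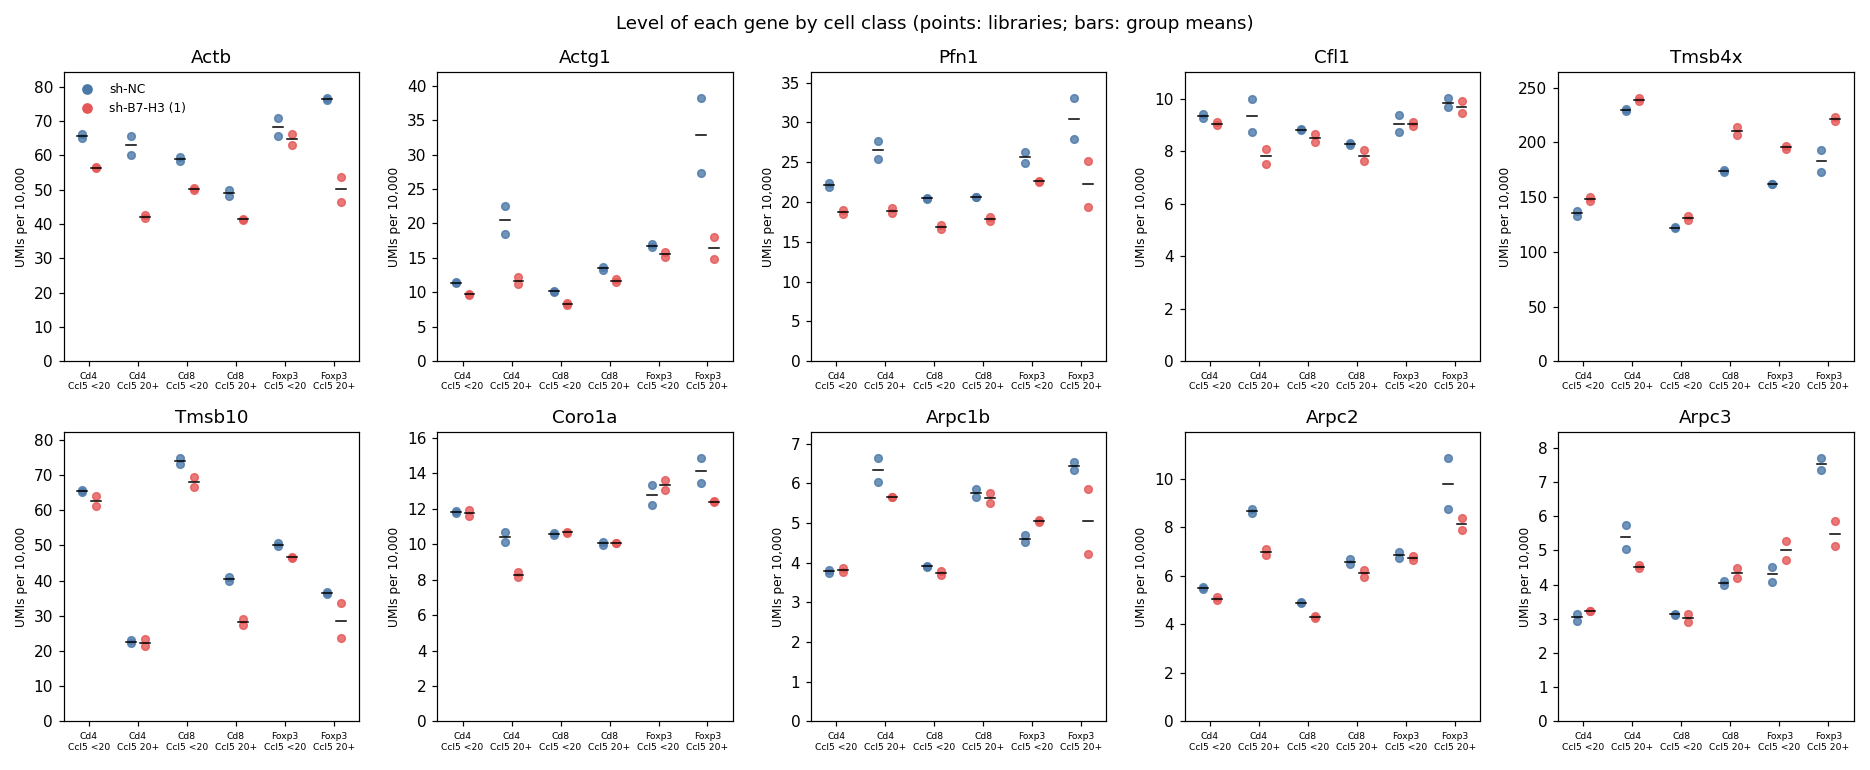
Levels of the 10 genes (UMIs per 10000, axes from 0) in 6 classes, with 1 point per library (sh-NC blue, sh-B7-H3 (1) red) and a bar at the group mean. Tmsb10 was lower and Tmsb4x higher in cells with Ccl5 at least 20 in all 3 lineages on this scale, and Actb was lower in sh-B7-H3 (1) libraries than in sh-NC libraries of Cd4 and Cd8 cells.

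The first comparison asked how the genes differed between T cells from the 2 tumor groups within a class. In Cd4 and Cd8 cells the actins and profilin were lower in the sh-B7-H3 (1) libraries in all 4 classes, and Tmsb4x was higher in all 4 and called in 3. Among these classes the difference in the actins was largest in Cd4 cells with Ccl5 at least 20. Foxp3 cells with Ccl5 under 20 showed only the higher Tmsb4x.

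For the actins, Actb in Cd4 cells with Ccl5 under 20 stood at 66.1, 65.0, 56.5 and 56.3, a log2 fold change of -0.17 ± 0.03 (adjusted p = 1.3e-05). With Ccl5 at least 20 it stood at 65.6, 60.1, 42.5 and 41.6 (-0.48 ± 0.05, adjusted p = 1.0e-07). Both sh-B7-H3 (1) libraries lay below both sh-NC libraries in each. Actb in Cd8 cells stood at 58.5, 59.4, 49.9 and 50.3 with Ccl5 under 20 (-0.17 ± 0.01, adjusted p = 1.7e-07). With Ccl5 at least 20 it stood at 49.8, 48.3, 41.5 and 41.2 (-0.20 ± 0.04, adjusted p = 0.00088). The groups did not overlap there either.

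Cell state markers moved with the groups in the classes with Ccl5 under 20. Effector markers summed to 1.47, 1.70, 11.8 and 7.09 per 10000 in these Cd4 cells and to 5.76, 5.86, 8.48 and 7.30 in the Cd8 cells. Naive markers summed to 17.2, 17.2, 13.9 and 14.03 in the Cd4 cells and to 15.2, 15.1, 12.6 and 12.6 in the Cd8 cells, and regulatory T cell markers in the Cd4 cells to 0.830, 0.974, 1.73 and 1.60. Ccl5 itself stood at 0.292, 0.282, 2.82 and 2.89 in the Cd4 cells and at 0.555, 0.690, 2.93 and 2.92 in the Cd8 cells. In both lineages effector markers and Ccl5 were thus higher and naive markers lower in the sh-B7-H3 (1) libraries, and their part in the differences of the 10 genes, Tmsb4x included, was not tested.

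Actg1 had its largest difference among the Cd4 and Cd8 classes in Cd4 cells with Ccl5 at least 20, at 22.5, 18.5, 11.2 and 12.2 (-0.71 ± 0.07, adjusted p = 2.2e-09). With Ccl5 under 20 the Actg1 levels were 11.5, 11.3, 9.81 and 9.59 (-0.19 ± 0.04, adjusted p = 8.2e-05). In Cd8 cells Actg1 fell by 0.22 with Ccl5 under 20 and by 0.15 with Ccl5 at least 20 (adjusted p = 1.6e-05 and 0.021). In the Cd4 cells with Ccl5 at least 20 the summed effector markers also differed, at 196, 185, 146 and 130 per 10000. Ccl5 stood at 241, 252, 184 and 182 there, lower in the sh-B7-H3 (1) libraries. The part of Ccl5 and these markers in the results of this class was not tested. The class held 103, 111, 294 and 358 cells.

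Among the monomer binders, Pfn1 in Cd4 cells with Ccl5 at least 20 stood at 27.7, 25.4, 18.6 and 19.2 (-0.39 ± 0.06, adjusted p = 2.3e-05). It fell by 0.19 in Cd4 cells with Ccl5 under 20, and in Cd8 cells by 0.21 with Ccl5 under 20 and by 0.16 with Ccl5 at least 20 (adjusted p = 7.9e-06, 7.7e-07 and 0.0097). Tmsb4x moved the other way. Its levels in Cd8 cells with Ccl5 at least 20 were 173, 175, 214 and 207 (0.32 ± 0.04, adjusted p = 1.3e-06). In Cd8 cells with Ccl5 under 20 it rose by 0.17 and in Cd4 cells with Ccl5 under 20 by 0.18 (adjusted p = 1.1e-08 and 1.3e-06). In Cd4 cells with Ccl5 at least 20 Tmsb4x stood at 229, 230, 241 and 238 and did not pass (0.16 ± 0.05, adjusted p = 0.071).

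Tmsb10, the other thymosin, was called within 1 class. In Cd8 cells with Ccl5 at least 20 it stood at 41.1, 39.9, 27.4 and 29.2 (-0.47 ± 0.04, adjusted p = 1.9e-08). Naive cell markers in the same cells summed to 4.49, 3.40, 1.32 and 1.17 per 10000, effector markers to 64.7, 65.9, 81.6 and 76.1, and Ccl5 stood at 166, 176, 230 and 227. Their part in the results of this class, Tmsb4x, Actb, Actg1 and Pfn1 included, was not tested. With Ccl5 under 20 Tmsb10 in Cd8 cells stood at 73.1, 74.7, 66.4 and 69.4, lower in both sh-B7-H3 (1) libraries, and did not pass (-0.05 ± 0.02, adjusted p = 0.060), though 12 of 21 alternatives called it. In Cd4 cells with Ccl5 at least 20 it stood at 23.1, 22.2, 21.3 and 23.4 (0.08 ± 0.06, adjusted p = 0.59), and the groups overlapped.

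Cfl1 passed in none of the 6 classes. Coro1a was lower in Cd4 cells with Ccl5 at least 20, at 10.7, 10.2, 8.13 and 8.44 (-0.23 ± 0.07, adjusted p = 0.044), a call made under 11 of 21 alternatives. In Cd8 cells with Ccl5 under 20 its test gave a small rise of 0.08 (adjusted p = 0.023) at levels of 10.5, 10.6, 10.6 and 10.7, which 11 of 21 alternatives called and which was 0.02 by library totals. Of the Arp2/3 subunits, Arpc2 passed in Cd8 cells with Ccl5 under 20, at 4.88, 4.92, 4.33 and 4.27 (-0.12 ± 0.03, adjusted p = 0.018), and Arpc1b and Arpc3 passed in no class.

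In counts, 4 of the 10 genes were called in Cd4 cells with Ccl5 under 20 (8.45% of all genes tested were called), 4 in Cd4 cells with Ccl5 at least 20 (3.45%), 6 in Cd8 cells with Ccl5 under 20 (9.94%) and 5 in Cd8 cells with Ccl5 at least 20 (9.86%). These shares, here and below, are over genes of all levels, and genes as abundant as the 10 were not set apart. In Foxp3 cells with Ccl5 under 20, 1 was called (3.23%): Tmsb4x at 162, 162, 194 and 196 (0.29 ± 0.05, adjusted p = 0.00043), where effector markers summed to 3.28, 4.79, 6.52 and 5.62 and naive markers to 10.2, 8.80, 6.71 and 5.32. In Foxp3 cells with Ccl5 at least 20, 3 were called (1.93%), Actb (-0.50 ± 0.11), Actg1 (-0.88 ± 0.17) and Tmsb4x (0.39 ± 0.08), from 12 to 16 cells per library and 1450 genes tested, and DESeq2 called 0. Effector markers in these cells summed to 27.3, 40.7, 113 and 98.1 per 10000 and regulatory T cell markers to 45.4, 36.8, 34.6 and 23.2. The part of these markers in the Foxp3 results was not tested. In Cd4 cells with Ccl5 at least 20, leaving out either sh-B7-H3 (1) library left Actg1 as the only call. For Cd8 cells with Ccl5 at least 20, leaving out either sh-NC library left Actb, Tmsb4x and Tmsb10. By library totals the split in Cd8 cells with Ccl5 under 20 went from 2 higher and 4 lower to 1 and 5, in Foxp3 cells with Ccl5 under 20 from 1 and 0 to 1 and 1, with Pfn1 at -0.18, and in those with Ccl5 at least 20 from 1 and 2 to 0 and 2. Cd4 cells with Ccl5 at least 20 had more calls by totals, as given in the closing section.

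Other RNA moved with the groups. Gm42418, a transcript that overlaps ribosomal RNA sequence, took 48.6 to 60.2 per 10000 in the sh-NC libraries and 247 to 317 in the sh-B7-H3 (1) libraries over the 6 classes. Mitochondrial transcripts were higher in both sh-B7-H3 (1) libraries in all 6 classes, for example at 345, 338, 408 and 407 per 10000 in Cd8 cells with Ccl5 under 20 and at 223, 227, 300.3 and 299 in Cd4 cells with Ccl5 at least 20. Scaling without these genes and the ribosomal protein genes ended no call of the 10 genes. In Cd8 cells with Ccl5 under 20 the 10 myeloid markers summed to 0.807, 0.651, 13.9 and 5.82 per 10000, with none at 0. The 3 red cell markers summed to 0.00371, 0.00781, 9.10 and 0.0267 there, so sh-B7-H3 (1) library 1 stood apart. Without that library 6 of the 10 genes were called there, and without cells of 5 or more myeloid UMIs also 6. Barcodes of 1 to 100 UMIs, which hold free RNA, gave Tmsb10 at 51.5, 54.7, 35.3 and 38.0 per 10000 and Tmsb4x at 129, 138, 135 and 147. Ccl5, which split the classes, stood at 12.1, 14.2, 42.8 and 47.4 in these barcodes. The part of free RNA in the results, and in the Ccl5 counts of cells with Ccl5 under 20, was not tested.

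**Figure D2:**
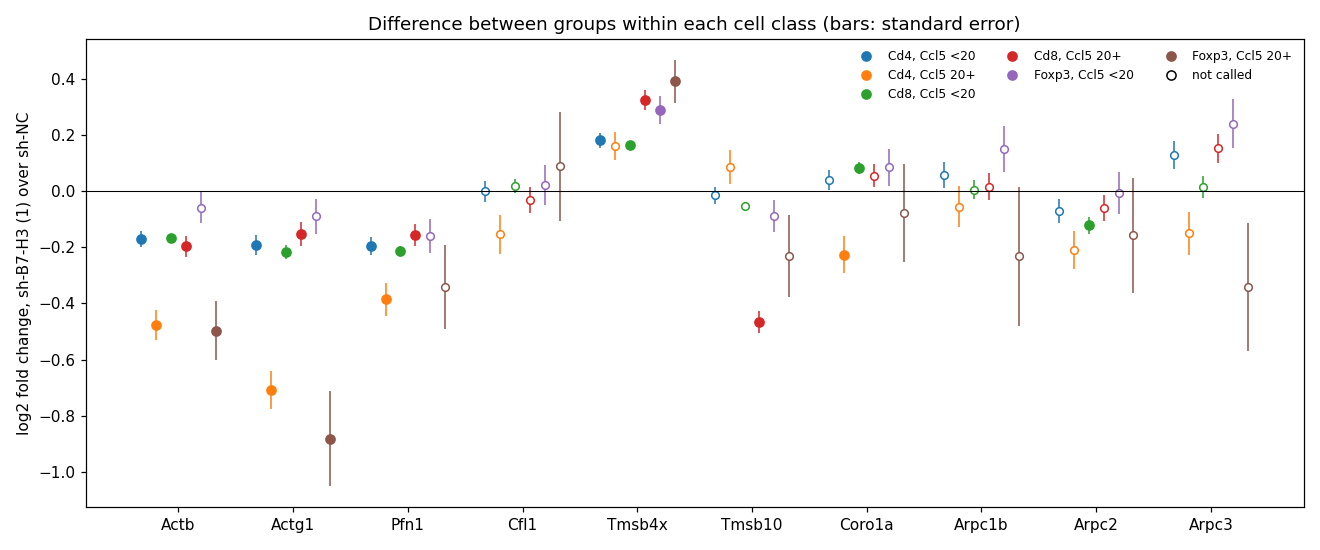
Log2 fold change of sh-B7-H3 (1) over sh-NC for each gene in each of the 6 classes, with bars of 1 standard error, filled points called and open points not called. Actb, Actg1 and Pfn1 lie below 0 and Tmsb4x above 0 in every class, and Actg1 in Cd4 cells with Ccl5 at least 20 is at -0.71.

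The difference of these effects between the Ccl5 classes was tested as an interaction. In Cd4 cells it was called for 3 genes (3.44% of all genes tested were called): Actb (-0.30 ± 0.05, adjusted p = 1.7e-05), Actg1 (-0.51 ± 0.07, adjusted p = 3.6e-08) and Coro1a (-0.26 ± 0.07, adjusted p = 0.014), the last called under 11 of 20 alternatives. Their group difference was more negative when Ccl5 was at least 20. In Cd8 cells it was called for Tmsb10 (-0.40 ± 0.03, adjusted p = 6.2e-11) and Tmsb4x (0.17 ± 0.02, adjusted p = 7.0e-06), against 3.06% of all genes. The part of the cell state markers given above in these interactions was not tested. In Foxp3 cells 0 of the 10 were called by edgeR and 0 by DESeq2, against 0.14% of all genes by edgeR, and Actg1 was nearest (-0.74 ± 0.18, unadjusted p = 0.00013, adjusted p = 0.057).

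The second comparison set cells with Ccl5 at least 20 against those under 20, within libraries. Cell state differed between these classes too. In every lineage and library, naive markers were lower and effector markers higher with Ccl5 at least 20. In sh-NC library 1, naive markers summed to 17.2 under 20 against 1.16 in Cd4 cells, and to 15.2 against 4.49 in Cd8 cells. Effector markers there summed to 1.47 against 196, and to 5.76 against 64.7. Their part in the differences between Ccl5 classes, here and below, was not tested. Tmsb10 fell most, by 1.86 in Cd4, 1.40 in Cd8 and 0.76 in Foxp3 cells on the log2 scale (adjusted p = 1.4e-10, 1.6e-08 and 2.1e-06). In Cd4 cells Tmsb10 stood at 65.1, 65.6, 61.2 and 64.1 with Ccl5 under 20 against the 21.3 to 23.4 given above. In Cd8 cells it stood at 73.1, 74.7, 66.4 and 69.4 against 27.4 to 41.1. No library of one class reached the other. Tmsb4x rose, from 137, 133, 150 and 147 to 229, 230, 241 and 238 in Cd4 cells (0.38 ± 0.05, adjusted p = 4.9e-05) and by 0.26 in Cd8 cells (adjusted p = 3.4e-05). In Foxp3 cells the fitted Tmsb4x change was 0.0029 (adjusted p = 1.00), with the other sign under 13 of 18 alternatives and no call under any of them.

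In Cd4 cells the test called 9 of the 10 genes, with 4 higher and 5 lower (49.6% of all genes tested were called), 9 in Cd8 cells, again 4 higher and 5 lower (54.1%), and 1, Tmsb10, in Foxp3 cells (4.14%). The background in Cd4 and Cd8 cells is high, so these counts say little about the 10 genes. Actb fell by 0.59 in Cd4 and 0.61 in Cd8 cells, Coro1a by 0.69 and 0.41, and Cfl1 by 0.46 and 0.44. Arpc1b rose by 0.31 and 0.24. Arpc2 rose by 0.21 and 0.13, and Arpc3 by 0.31 in Cd4 cells.

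These directions depend on the scaling. Ribosomal protein genes took 4344 to 4618 of 10000 UMIs in Cd4 cells with Ccl5 under 20 and 2731 to 3033 with Ccl5 at least 20, and scaling by library totals alone raised the median of all genes by 0.34 in Cd4 and 0.33 in Cd8 cells. By totals Pfn1 turned from -0.21 to 0.14 in Cd4 cells and from -0.29 to 0.05 in Cd8 cells, and the split of the calls became 5 higher and 3 lower in both lineages. By totals Cfl1 was at -0.11 in both lineages, no longer called in Cd4 cells (adjusted p = 0.20), and Coro1a in Cd8 cells was at -0.08 and not called (adjusted p = 0.051). Tmsb10 remained lower by totals, at -1.51 and -1.07, and Tmsb4x higher, at 0.73 and 0.60. Actb was at -0.24 in Cd4 and -0.27 in Cd8 cells by totals, and Actg1 at 0.55 and 0.45.

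**Figure D3:**
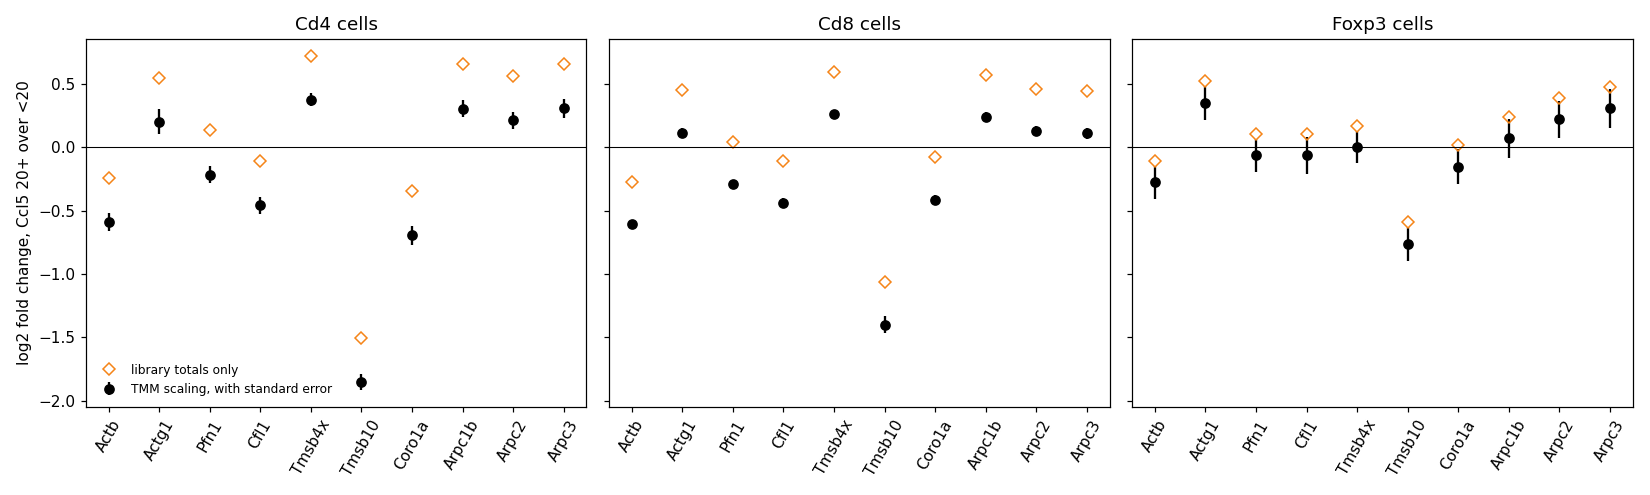
Log2 fold change of cells with Ccl5 at least 20 over those under 20 for each gene in Cd4, Cd8 and Foxp3 cells, with TMM scaling (black, bars of 1 standard error) and with library totals only (open diamonds). Totals shift all genes of a panel upwards alike, and Tmsb10 is the lowest gene on both scales.

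Ratios of 2 genes within a library need no scaling. The ratio of Tmsb10 to Tmsb4x UMIs in Cd4 cells was 0.474, 0.493, 0.407 and 0.436 with Ccl5 under 20, and 0.101, 0.0965, 0.0887 and 0.0986 with Ccl5 at least 20. In Cd8 cells it was 0.594, 0.615, 0.502 and 0.537 against 0.237, 0.228, 0.128 and 0.141. The ratio of Actg1 to Actb in Cd4 cells was 0.175, 0.174, 0.174 and 0.170 with Ccl5 under 20 and 0.343, 0.308, 0.262 and 0.293 with Ccl5 at least 20. In Cd8 cells it lay between 0.163 and 0.173 against 0.274 to 0.289. Both ratios separated the Ccl5 classes in every library of Cd4 and Cd8 cells.

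**Figure D4:**
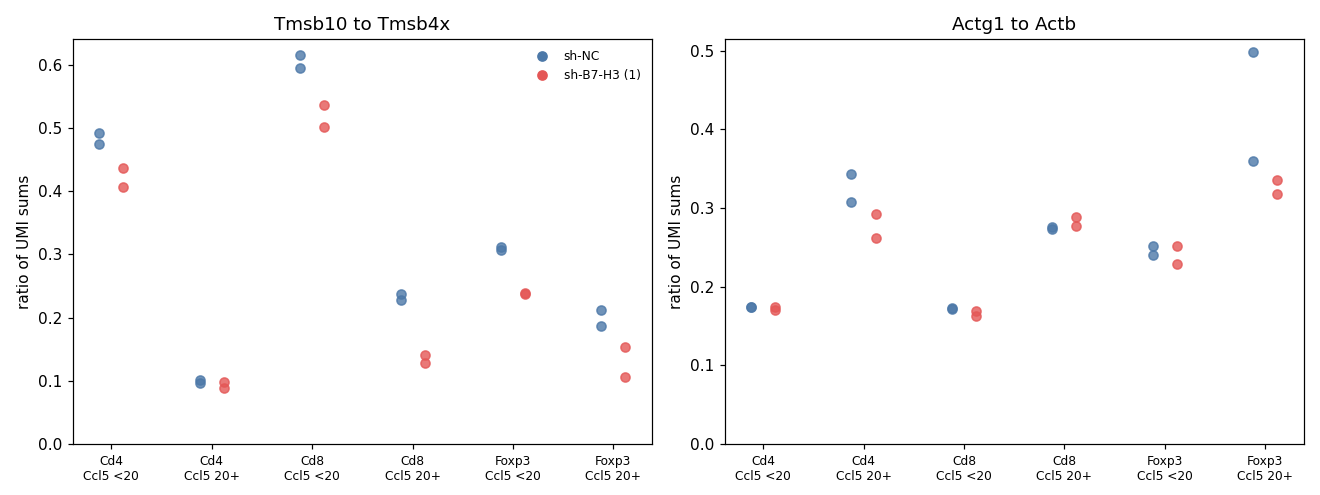
Ratio of Tmsb10 to Tmsb4x UMIs (left) and of Actg1 to Actb UMIs (right) in 6 classes, with 1 point per library and axes from 0. In Cd4 cells with Ccl5 at least 20 the thymosin ratio lies between 0.0887 and 0.101 in all 4 libraries.

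The levels were also read by Ccl5 UMIs in 5 steps. Tmsb10 in Cd4 cells was 65.4, 66.0, 65.6 and 66.8 at 0 Ccl5 UMIs and 64.5, 64.2, 63.1 and 65.2 at 1 to 4. It was 21.3, 21.5, 20.7 and 23.2 at 50 or more. Cells with 1 to 4 Ccl5 UMIs thus stood near those with 0. Free RNA held Ccl5 in every library, as given above, and its part in counts of 1 to 4 was not tested. In Cd8 cells Tmsb10 at 20 to 49 Ccl5 UMIs was 56.9, 55.8, 40.2 and 44.8, between the levels at 0 (73.7, 75.8, 69.5 and 71.6) and at 50 or more (34.1, 34.5, 25.2 and 26.8).

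**Figure D5:**
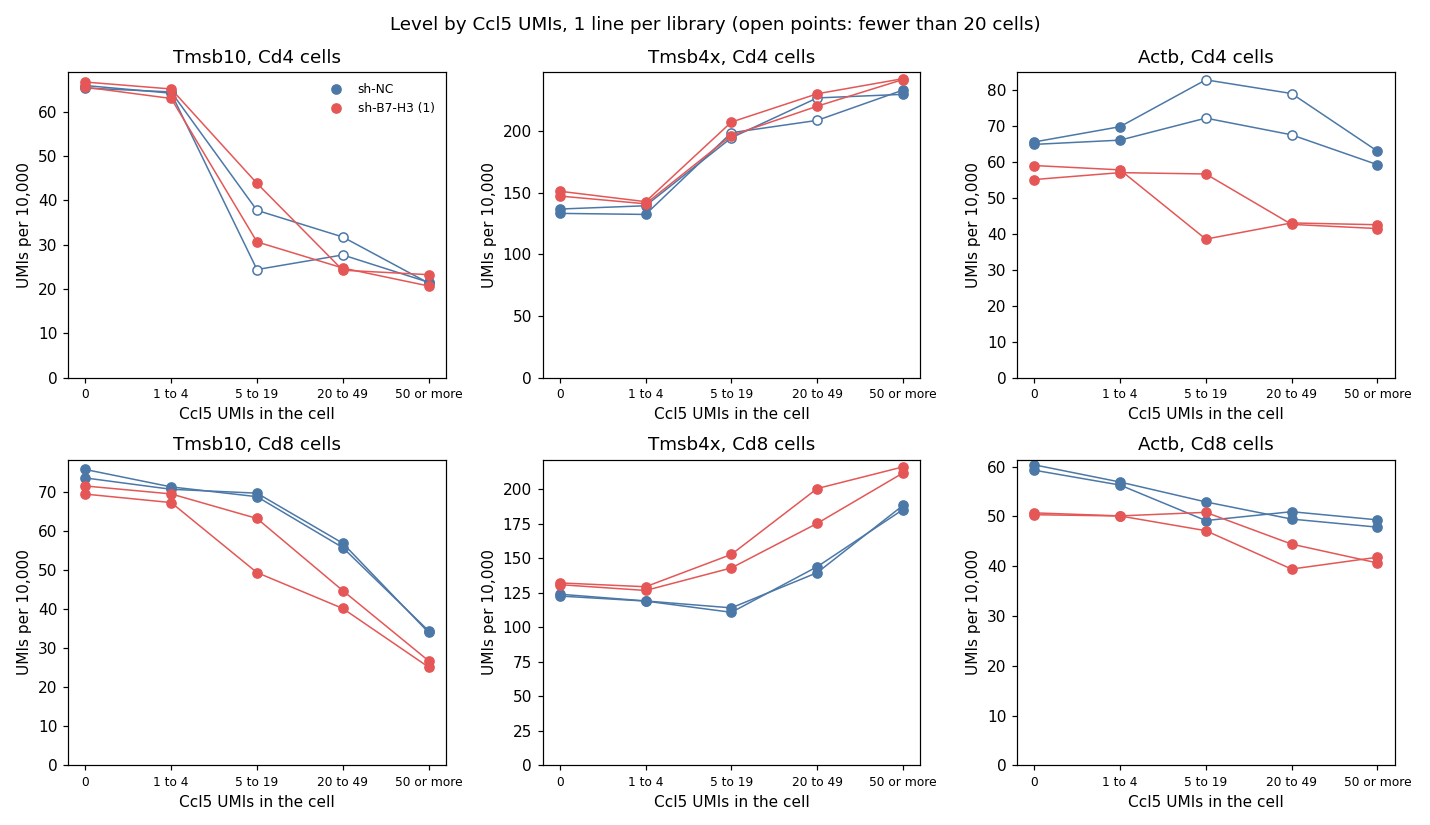
Levels of Tmsb10, Tmsb4x and Actb (UMIs per 10000, axes from 0) by Ccl5 UMIs of the cell in Cd4 and Cd8 cells, with 1 line per library and open points for fewer than 20 cells. Tmsb10 in Cd4 cells lies between 63.1 and 66.8 up to 4 Ccl5 UMIs and between 20.7 and 23.2 at 50 or more.

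The third comparison took each lineage whole. In Cd4 cells 9 of the 10 genes were called between the groups, 3 higher and 6 lower in sh-B7-H3 (1) (38.9% of all genes tested were called), and in Cd8 cells also 3 higher and 6 lower (42.6%). In Foxp3 cells 1 was called (3.73%), Tmsb4x. Tmsb10 over all Cd4 cells stood at 62.6, 62.2, 41.8 and 45.8 (-0.60 ± 0.04, adjusted p = 7.0e-10), while within the Ccl5 classes its log2 differences were -0.01 and 0.08, neither called. The share of Cd4 cells with Ccl5 at least 20 also differed between the groups, as given above, and its part was not tested. Over all Cd8 cells Tmsb10 was at -0.59, and there it was also called lower within the class with Ccl5 at least 20 (-0.47). Tmsb4x over all Cd4 cells stood at 143, 141, 194 and 188 (0.33 ± 0.04, adjusted p = 2.0e-07). The 10 genes together took 341, 335, 348 and 346 of 10000 UMIs in Cd4 cells and 318, 319, 326 and 321 in Cd8 cells, so the summed level differed little while single genes moved in opposite directions.

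The fourth comparison set lineages against each other within libraries. Against Cd4 cells with Ccl5 under 20, Cd8 cells had more Tmsb10 (0.29 ± 0.01, adjusted p = 2.0e-09), Arpc1b (0.16) and Arpc3 (0.13), 3 of 10 called (25.6% of all genes). The split of these calls turns with the scaling: 3 were higher and 0 lower with TMM, and 1 higher and 7 lower by library totals only, where the median of all genes was -0.15. By totals Arpc1b was at 0.01 and not called (adjusted p = 0.79) and Arpc3 at -0.02, while Actb (-0.16), Actg1 (-0.20), Pfn1 (-0.13), Cfl1 (-0.09), Tmsb4x (-0.17), Coro1a (-0.15) and Arpc2 (-0.20) were called lower, and Tmsb10 remained higher at 0.15. With Ccl5 at least 20 they had more Tmsb10 (0.74 ± 0.10, adjusted p = 2.1e-05) and Coro1a (0.28), 2 of 10 (17.6%), both higher. By totals 1 was higher, Tmsb10 at 0.58, and 5 lower, Actg1 (-0.29), Pfn1 (-0.22), Tmsb4x (-0.29), Arpc2 (-0.29) and Arpc3 (-0.22), and Coro1a was at 0.12 and not called (adjusted p = 0.27). Cell state markers differed between the lineages too. With Ccl5 at least 20, naive markers summed to 4.49, 3.40, 1.32 and 1.17 in Cd8 against 1.16, 0.776, 0.489 and 0.618 in Cd4 cells. Effector markers summed to 64.7, 65.9, 81.6 and 76.1 against 196, 185, 146 and 130. With Ccl5 under 20, naive markers summed to 10.2, 8.80, 6.71 and 5.32 in Foxp3 against 17.2, 17.2, 13.9 and 14.03 in Cd4 cells. Their part in the lineage results was not tested. Foxp3 cells differed from Cd4 cells with Ccl5 under 20 in 6 of 10 (38.7%), 2 higher and 4 lower. Tmsb10 fell by 0.71 (adjusted p = 1.5e-10) and Cfl1 by 0.33, and Actg1 rose by 0.31 and Arpc3 by 0.26. Actb was at -0.18 and Coro1a at -0.16, both called, but by library totals only they turned to 0.13 and 0.15. By totals Cfl1 was at -0.02 and not called (adjusted p = 0.72), and Actg1 and Arpc3 were at 0.61 and 0.56. Pfn1 (0.24), Tmsb4x (0.33), Arpc1b (0.34) and Arpc2 (0.37) were then called higher too, which made 8 higher and 1 lower, Tmsb10 at -0.40, beside a median of all genes of 0.29.

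Over the 24 sums of class and library, the 10 genes did not form 1 pattern. As a description, with sums of a library sharing its depth and base composition, Pearson's r of the log2 levels was -0.956 between Tmsb4x and Tmsb10 and 0.936 between Arpc2 and Arpc3. Of 2352 other genes that averaged 50 CPM or more (counts per total, scaled alike in all sums), those most like the mean of the 10 were Aebp2 (r = 0.943), Ywhaq (0.917), Ncoa3 (0.915), Slc25a3 (0.914) and Mtdh (0.911).

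Of 85 other genes of the actin system and other filaments, in 10 lists, 13 of 83 tested were called between the groups in Cd4 cells with Ccl5 under 20, 6 higher and 7 lower, against 8.45% of all genes, and their median of 0.03 stood beside 0.01 for all genes. In Cd4 cells with Ccl5 at least 20, 0 were higher and 7 of 82 lower (3.45% of all genes called, median -0.12 against 0.01). In Cd8 cells 9 were higher and 11 lower of 84 with Ccl5 under 20 (9.94% of all genes called, median -0.02 against 0.01). With Ccl5 at least 20, 4 were higher and 16 lower (9.86%, median -0.03 against -0.0016), where 464 of all genes were higher and 475 lower (337 and 630 by library totals). Of these 16, 4 came from the 6 genes of other filaments, which are not actin genes. In Foxp3 cells with Ccl5 under 20, 3 were higher and 1 lower of 83 (3.23%).

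Actr3, which encodes the Arp3 subunit, was the 1 called among the 6 other Arp2/3 subunits in each of the 4 Cd4 and Cd8 classes, and was lower each time. In Cd4 cells with Ccl5 at least 20 it stood at 5.11, 4.22, 3.29 and 3.56 (-0.34 ± 0.09, adjusted p = 0.017). Capg, which caps filament ends, went in different directions: it fell by 0.53 in Cd4 cells with Ccl5 at least 20 and rose by 0.53 in those under 20. Capg in Cd8 cells with Ccl5 at least 20 stood at 0.514, 0.514, 0.932 and 1.02 (0.99 ± 0.10). In the same cells Ssh2, a phosphatase that activates cofilin, stood at 0.628, 0.542, 0.276 and 0.318 (-0.91 ± 0.13), and the ezrin family linker Msn fell by 0.36. Naive and effector markers also moved in these cells, as given above, and their part in the results of the list genes was not tested.

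Between the Ccl5 classes, 19 of 84 tested list genes were higher and 31 lower in Cd4 cells, 27 and 30 of 84 in Cd8 cells, and 0 and 4 of 77 in Foxp3 cells. Of all genes 49.6, 54.1 and 4.14% were called, so these counts say little about the lists. Myo1f, a class I myosin, was the called myosin with the largest change, higher by 3.50 in Cd4 and 2.53 in Cd8 cells. In Cd4 cells Myo1f stood at 0.587, 0.624, 0.611 and 0.659 with Ccl5 at least 20 against 0.0195, 0.0140, 0.116 and 0.0806 under 20. Under 20 it was called higher in the sh-B7-H3 (1) libraries (2.53 ± 0.35, adjusted p = 1.3e-07), so by these levels the class difference was smaller in that group. The Myo1f levels under 20 were low. Effector markers and Ccl5 were also higher in that group there, as given above, and their part was not tested. The actin crosslinker Actn1 fell by 1.83 and 2.08. Of the 6 genes of other filaments 5 were lower and 1 higher in Cd4 and in Cd8 cells, and 2 were lower and 0 higher in Foxp3 cells. Among them was Tuba4a, an alpha-tubulin, which fell by 1.63 in Cd4 cells, and Tuba1b fell by 1.60 in Cd8 cells. Naive and effector markers differed between the Ccl5 classes, as given above, and their part in these list results was not tested.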

How the data were processed

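The authors deposited UMI counts, not normalized, made per their methods with Cell Ranger and STAR against mm10; the labels also name Seurat 4.0.0, and the header of the filtered matrices names Cell Ranger 6.1.1. The members and gene lists were chosen with earlier results of these data known. Cells with 200 to 3000 genes and at most 5% mitochondrial UMIs were kept. Doublets were scored with simulated doublets (30 components, 2000 genes, 50 neighbours; scanpy 1.11.5), and 32.2 to 36.7% of tested cells were removed, a high rate, by a rule settled with these data in view. UMIs were summed per library and class and tested with edgeR 4.0.16 (quasi-likelihood, TMM, filterByExpr, Benjamini-Hochberg), with the library as a block for Ccl5 and lineage comparisons. DESeq2 1.42.0 was an alternative. The fits were tested on simulated counts. Classes under 10 cells were not fitted. Named genes were all 10 members, called genes with the largest change in their list (not all are reported here), and the 5 genes most like the members' mean. Cells are not replicates, and n is 2 libraries per group. By the labels these are lanes, so the p-values measure spread between lanes and not between tumors.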

Additional observations from a re-analysis of the deposited data

Results flagged for a closer look

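A set of 5 differences were marked because the effect of the tumor group differed between the Ccl5 classes by the interaction test (edgeR, adjusted over all genes). In Cd4 cells these were Actb at -0.30, Actg1 at -0.51 and Coro1a at -0.26 on the log2 scale. In Cd8 cells they were Tmsb4x at 0.17 and Tmsb10 at -0.40. Without sh-B7-H3 (1) library 1 Coro1a was no longer called. Without sh-B7-H3 (1) library 2 Actg1 was the only one of the 3 still called in Cd4 cells, and both Cd8 calls held without any 1 library.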

How the results depend on the processing

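Of 1517 values of called genes under the alternatives, 1390 stayed called in the same direction, 122 kept the direction and lost the call, and 5 reversed. All 5 reversed with library totals only: Pfn1 between Ccl5 classes (0.14 in Cd4, 0.047 in Cd8 cells), Arpc3 in Cd8 against Cd4 cells with Ccl5 under 20 (-0.020), and Actb and Coro1a in Foxp3 against Cd4 cells (0.13 and 0.15). With library totals only, the genes called between groups became 7 in Cd4 cells with Ccl5 at least 20, 2 in Foxp3 cells with Ccl5 under 20 and 3 in all Foxp3 cells, the interaction calls 5 in Cd4 and 1 in Foxp3 cells, the Ccl5 class calls in Foxp3 cells 2, and the lineage calls 8, 1 higher and 7 lower (Cd8 against Cd4, Ccl5 under 20), and 6, 1 higher and 5 lower (Ccl5 at least 20), against 3 and 2 higher with none lower by TMM. Foxp3 against Cd4 cells went from 2 higher and 4 lower to 8 and 1. Without the filter on low counts, Foxp3 cells gave 2 (Ccl5 under 20), 3 (all cells), 2 (Ccl5 class) and 1 (interaction).

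In Foxp3 cells with Ccl5 at least 20, 0 of the 10 were called by DESeq2, with no upper limit on genes, without doublet removal and with doublets at 0.8% per 1000 barcodes. The interaction in Foxp3 cells gave 1 call when scaled without the 10 members, with up to 10% mitochondrial UMIs, with Ccl5 split at 10 UMIs or at 20 per 10000, and without myeloid cells, an alternative chosen after seeing the data. All Foxp3 cells gave 2 without doublet removal, with 0.8% per 1000, and without myeloid cells. The interaction in Cd4 cells gave 5 with no upper limit on genes and 1 under both looser doublet settings. Thinned to 2000 UMIs, Foxp3 cells with Ccl5 under 20 gave 0 and Cd8 against Cd4 cells with Ccl5 at least 20 gave 1. With up to 10% mitochondrial UMIs, Cd8 against Cd4 cells with Ccl5 under 20 gave 6.

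Leaving out 1 library, the calls ranged from 1 to 6 in Cd4 cells with Ccl5 at least 20, 3 to 5 in Cd8 cells with Ccl5 at least 20, 4 to 7 in Cd8 cells with Ccl5 under 20 and 0 to 3 in Foxp3 cells with Ccl5 at least 20. They ranged from 1 to 4 for the interaction in Cd4 cells, 0 to 1 in Foxp3 cells, and 1 to 2 for Cd8 against Cd4 cells with Ccl5 at least 20. The lone library left in a group was then assumed to vary like the others.

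Replicate numbers did not pair the libraries: deviations of same-numbered libraries correlated at -0.03, 0.01 and -0.01 in Cd4, Cd8 and Foxp3 cells. With the replicate block 2 of the 10 were called in Foxp3 cells with Ccl5 under 20 and 2 in all Foxp3 cells, and no other count of the 10 moved by over 1.5 times.

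Over all genes DESeq2 called fewer than edgeR. Between groups it called 283 (Cd4, Ccl5 under 20), 111 (Cd4, at least 20), 2206 (all Cd4), 494, 349 and 2922 (the same for Cd8), and 148, 8 and 172 (the same for Foxp3), against edgeR's 857, 283, 4191, 1083, 939, 4958, 264, 28 and 311. It called 138 between Ccl5 classes of Foxp3 cells (edgeR 267), and 121, 129 and 0 interactions (edgeR 330, 320 and 9) in Cd4, Cd8 and Foxp3 cells. For lineages it called 1530, 2215 and 868, against 2797, 3608 and 1685. Comparisons of Foxp3 cells with Ccl5 at least 20 were not run with the stricter lineage call or Ccl5 split at 40, which left fewer than 10 cells in a library.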
